A study of Arabidopsis thaliana with 2 samples.

Results

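Genes of 9 ethylene-response factors (ERF) and dehydration-responsive element-binding factors (DREB) were examined in a map of SOG1 binding in Arabidopsis thaliana. They were ERF-1 (AT4G17500), ERF5 (AT5G47230), ERF15 (AT2G31230), DREB1A (AT4G25480), CBF1 (AT4G25490), DREB19 (AT2G38340), RAP2.4 (AT1G78080), ERF4 (AT3G15210) and ERF8 (AT1G53170). The genes were selected on the authors' peak calls, since each locus is listed beside a chromatin immunoprecipitation (ChIP) peak, so having a peak is not a result here. They are 9 of the 1513 genes listed at any peak and account for 11 of the 778 peaks. The tested library came from Col-0 plants that were otherwise wild type and carried SOG1 fused to a Myc tag behind the SOG1 promoter, in addition to their own SOG1 gene. These plants, 2 weeks old and grown in liquid medium, received 15 µM zeocin, a drug that breaks DNA, for 2 h. Col-0 plants of the same age without the tag, marked mock in the labels, gave the second library with the same antibody against Myc, and its values were not analysed here. The protocol text of that library mentions zeocin, against its treatment label, which was followed. Each group holds 1 library of whole plants, so no value below has a replicate error or a test, and tag and drug cannot be told apart by design.

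SOG1 is a NAC transcription factor that switches on much of the plant response to DNA damage. ERF and DREB factors share a DNA-binding domain called AP2/ERF. ERF proteins act downstream of the gaseous hormone ethylene and in wounding, redox and defence responses, and typically bind the GCC box of their target promoters. DREB proteins act in the responses to cold, drought and salt, and typically bind the dehydration-responsive element. Most members of the family activate transcription, whereas those with a motif called EAR repress it by recruiting corepressors such as TOPLESS.

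For each peak the authors give the reads inside it, a fold enrichment over a denominator that is not stated, a Decibel Score of unstated formula, a length and a summit position. All are the authors' own values and describe peaks within this list. Over all 778 peaks the median fold enrichment was 4.33 (2.49 to 23.0), the median read count 75 (39 to 572) and the median length 837 bp (472 to 3767). The authors' false discovery rate lay between 0.141 and 0.154 at the 11 peaks described here and between 0.116 and 1 over the list. It is given without a unit, so it may be a fraction or a percentage. The total depth of the libraries is not known. Positions are on TAIR10 as the authors give them.

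The 3 ERF activators of the ethylene and defence branch had peaks that were weak by fold enrichment. ERF-1, an activator induced by ethylene and not the same gene as ERF1, was the only gene listed at a peak of 2.85-fold on chromosome 4, 9758774 to 9760508. This peak held 159 reads over 1734 bp, so that it ranked 99 of 778 by reads but 763 by fold enrichment. ERF5, an activator in defence and stress responses, had a peak of 3.04-fold with 73 reads over 958 bp on chromosome 5, 19179557 to 19180515, ranking 734 by fold enrichment and 262 by Decibel Score. ERF15, an activator linked to abscisic acid responses and defence, was the only gene listed at a peak of 3.77-fold with 60 reads over 742 bp on chromosome 2, 13307363 to 13308104. All 3 fold enrichments were below the median of the list, while only the ERF-1 peak held more reads than the median peak. By Decibel Score the ERF5 peak, at 98.6, stood above the list median of 77.7. The ERF-1 and ERF15 peaks stood below it, at ranks 534 and 647.

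DREB19, a factor of the same subgroup as the drought regulator DREB2A, had the strongest peak of the 9 genes by fold enrichment, Decibel Score, reads and reads per kb, while its false discovery rate of 0.154 was the highest of the 11 peaks. It reached 6.85-fold with 381 reads over 1969 bp on chromosome 2, 16067686 to 16069654. With a Decibel Score of 926 it ranked 13 of 778 by score, 11 by reads and 68 by fold enrichment. Its density of 193 reads per kb compared with a median of 88.6 over all peaks, and 98.3% of all peaks had a lower score. The summit lay at 45.7% of the peak's length. It remained below 10-fold, a level that 23 peaks of the list and 0 of the 11 described here reached.

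DREB1A and CBF1, neighbouring genes for activators of the cold response, were listed at 1 common peak, so their values are the same measurement. This peak had 4.53-fold enrichment and 62 reads over 752 bp on chromosome 4, 13023320 to 13024071. It was close to the median by fold enrichment (rank 326) and lower by Decibel Score (59.3, rank 605). In the gene order, CBF2, the remaining gene of this cold-response cluster, is the next protein-coding gene before DREB1A and was not listed at any peak.

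RAP2.4, also known as WIND1, a factor that promotes cell dedifferentiation at wounds and acts in light, ethylene and drought responses, had 3 peaks. The first had 3.67-fold enrichment and 97 reads over 1142 bp on chromosome 1, 29359057 to 29360199. The second, 527 bp further on at 29360727 to 29361407, had 4.52-fold enrichment and 57 reads over 681 bp. The third began after another 2663 bp, at 29364071 to 29366477, and had 2.84-fold enrichment and 293 reads over 2406 bp. The peak richest in reads was thus the one with the lowest fold enrichment, ranking 22 by reads and 765 by fold enrichment. The middle peak, with a Decibel Score of 51.2, stood near the floor of the list, whose lowest score was 50.01. All 3 peaks named RAP2.4 and no other gene, and together they spanned 7421 bp and held 447 reads. Only 3 of the 1513 listed genes (0.198%) had 3 peaks. The other two were EXL2 (AT5G64260) and AT5G66120.

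The 2 repressor genes had peaks above the median of the list by fold enrichment, score and reads. ERF4, a repressor with an EAR motif that dampens ethylene, jasmonate and abscisic acid responses, had 2 peaks on chromosome 3. The first, at 5119362 to 5120385, had 5.12-fold enrichment and 112 reads over 1024 bp. The second began 651 bp further on, at 5121037 to 5123105, and had 5.05-fold enrichment and 224 reads over 2068 bp. These peaks were alike in fold enrichment and in density, at 109 and 108 reads per kb, while the second was the longer one. The summit of the second lay at 84.8% of its length, counted from the low-coordinate edge, and 2736 bp from the summit of the first. A summit beyond 75% of the length occurred in 24 of all 778 peaks (3.08%).

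One more peak stood 1323 bp beyond the second ERF4 peak, and no gene is listed for it. It covered 5124429 to 5126408 on chromosome 3, with 7.75-fold enrichment and 223 reads over 1979 bp. By fold enrichment (rank 55 of 778) it was stronger than either peak that names ERF4, and stronger than any peak of the 9 genes. By Decibel Score it stood at 274, between the ERF4 peaks at 161 and 289. The next peak, 7019 bp further on, names AT3G15220, AT3G15240, AT3G15251 and AT3G15260 but not ERF4.

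ERF8, another repressor of the EAR class, was the only gene listed at a peak of 5.36-fold with 88 reads over 909 bp on chromosome 1, 19825064 to 19825972. It ranked 157 by fold enrichment and 142 by Decibel Score, with a score of 149. Of the 6 peaks that named a single one of the 9 genes and nothing else, it had the highest fold enrichment. A weaker peak of 3.71-fold with 85 reads, for which no gene is listed, stood 3490 bp before it.

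**Figure D1:**
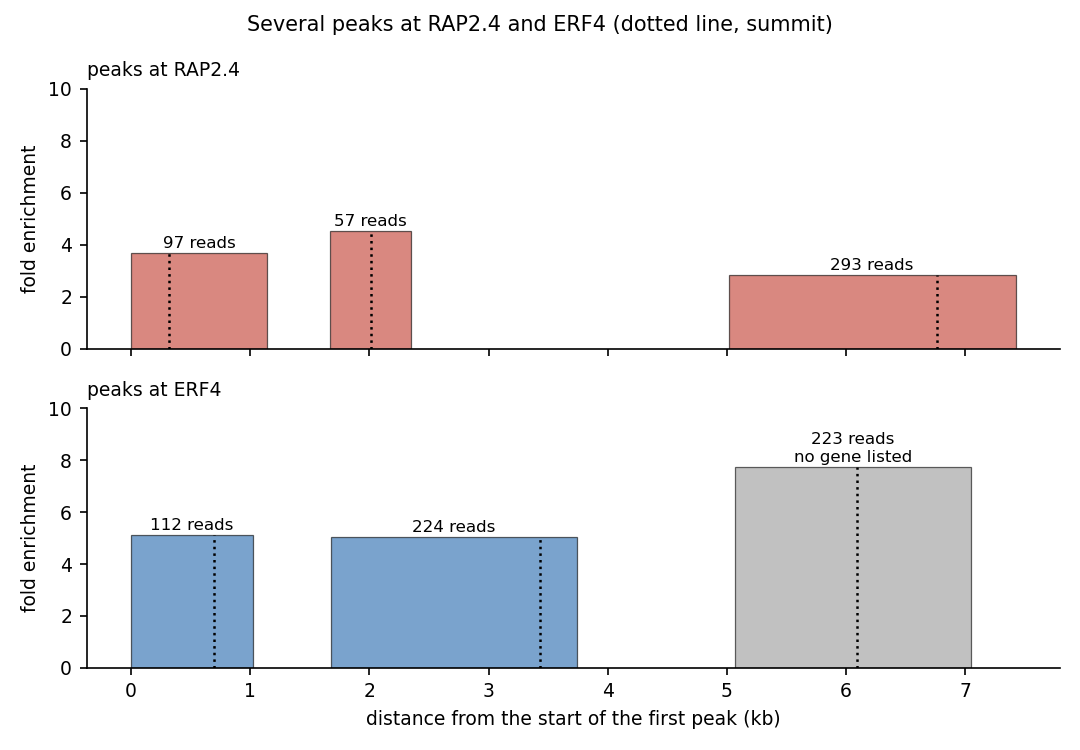
Peaks at RAP2.4 (upper panel) and ERF4 (lower panel), with distance from the start of the first peak in kb on the x axis and the authors' fold enrichment as bar height. Bar width is peak length and dotted lines are summits. The longest RAP2.4 peak, with 293 reads, is the lowest at 2.84-fold, and the grey peak with no gene listed beside ERF4 is the highest at 7.75-fold.

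Set side by side, the 8 peaks of the 7 activator genes had a median fold enrichment of 3.72 (2.84 to 6.85) and the 3 peaks of the 2 repressor genes one of 5.12 (5.05 to 5.36). Only 1 activator peak, that of DREB19, exceeded the lowest repressor peak, but 73.3% of all peaks also lay below that repressor peak. For the Decibel Score the median was 73.6 (51.2 to 926) for activator peaks and 161 (149 to 289) for repressor peaks. Here 7 of the 8 activator scores lay below the lowest repressor score, as did 81.7% of all peaks. With 8 activator peaks, these counts are near those shares. Reads per kb overlapped more, at a median of 84.3 (76.2 to 193) for activator peaks and 108 (96.8 to 109) for repressor peaks. Besides DREB19, the third RAP2.4 peak, at 122 reads per kb, lay above all repressor peaks on this measure. Read counts overlapped as well, with a median of 85 (57 to 381) for activator peaks and 112 (88 to 224) for repressor peaks. DREB19 and the third RAP2.4 peak held more reads than any repressor peak. Peak length did not separate the roles, with medians of 1050 bp for activator peaks and 1024 bp for repressor peaks. Peaks of 1 gene share their source and the repressor values come from 2 genes, so these differences are a description of 11 peaks.

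**Figure D2:**
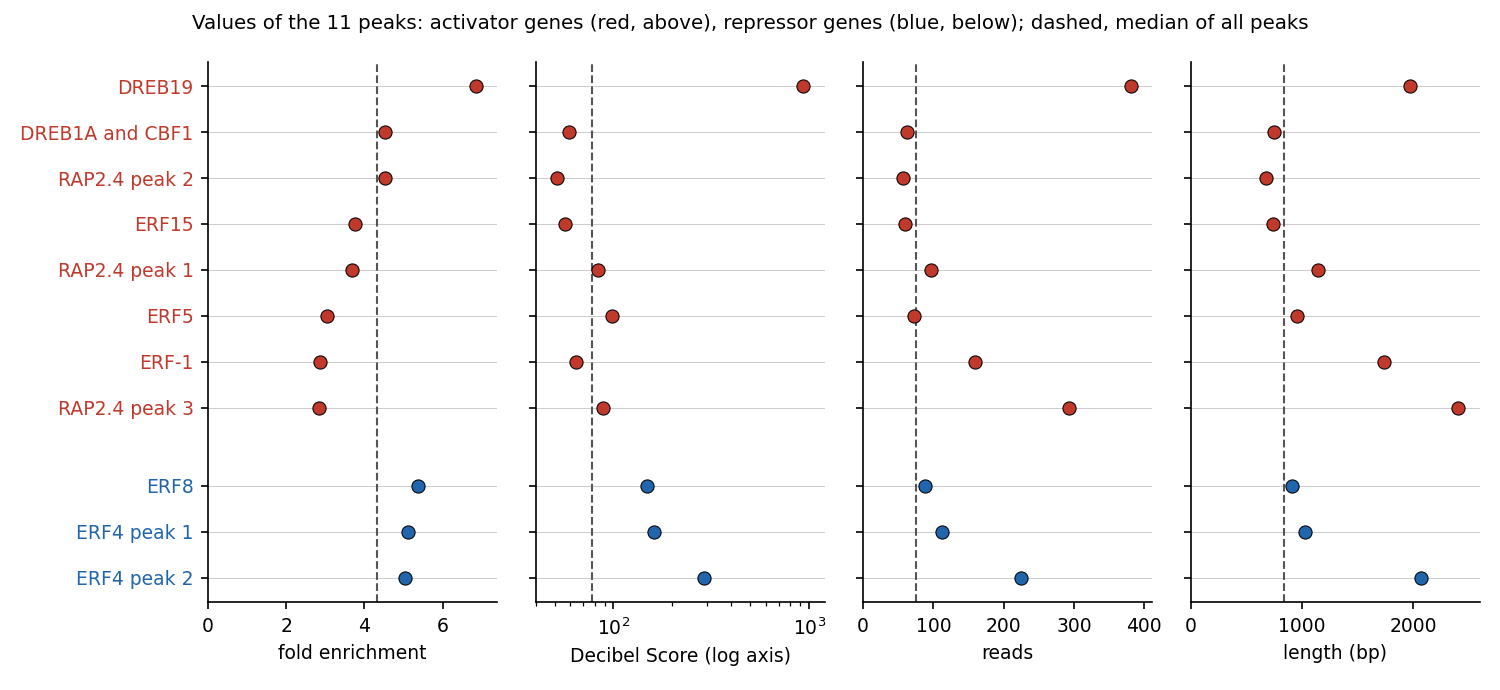
Fold enrichment, Decibel Score (log axis), reads and length in bp of the 11 peaks, 1 row per peak. Activator genes are red and above, repressor genes blue and below, and the dashed line is the median of all 778 peaks. All 3 repressor peaks lie right of the dashed line in every panel, and DREB19 is the only activator peak above them in fold enrichment and score.

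As a set, the 11 peaks were of ordinary strength for this list. Their median fold enrichment was 4.52, against 4.33 over all peaks, and 6 of the 11 lay above the overall median. Their median read count was 97 against 75, their median Decibel Score 88.6 against 77.7 and their median density 91.7 against 88.6 reads per kb. Their median length was 1024 bp against 837 bp, and 4 of 11 peaks were longer than 1500 bp against 83 of all 778 (10.7%). These 4 were the peaks of DREB19 and ERF-1, the second of ERF4 and the third of RAP2.4. The median summit lay at 47.1% of the length, against 51.2% over all peaks.

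Which members counted as strong depended on the measure. The 389 strongest peaks by fold enrichment name 50.3% of the 1369 protein-coding genes with a peak and 6 of the 9 genes, a share near that background, namely DREB19, DREB1A, CBF1, RAP2.4, ERF4 and ERF8. The 389 strongest by Decibel Score also name 50.3%, and 5 of the 9 genes, namely DREB19, RAP2.4, ERF5, ERF4 and ERF8. The 396 peaks with the most reads, a number set by ties, name 53.4% and likewise 5 of the 9 genes, namely DREB19, RAP2.4, ERF-1, ERF4 and ERF8. DREB19, RAP2.4, ERF4 and ERF8 were thus in all 3 selections, and ERF15 was in none of them. Each peak of DREB19, ERF4 and ERF8 was in all 3, but no RAP2.4 peak was. The fold enrichment selection held only the 4.52-fold RAP2.4 peak, which ranked 758 by Decibel Score and 635 by reads. The other RAP2.4 peaks were in the score and reads selections but ranked 591 and 765 by fold enrichment. With 3 peaks, RAP2.4 had more chances to be named than a gene with 1.

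Reads and fold enrichment ranked the peaks differently. The ERF-1 peak and the third RAP2.4 peak belonged to 13 peaks of the list (1.67%) that were among the 100 highest by reads and the 100 lowest by fold enrichment. The 83 peaks longer than 1500 bp had a median of 4.48-fold and the other 695 peaks one of 4.31-fold. Their median read counts were 234 and 72. Medians do not describe the low end of the list, where the lowest fold enrichment, 2.49, was at a peak of 1822 bp. Whether length goes with a low fold enrichment was not tested.

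**Figure D3:**
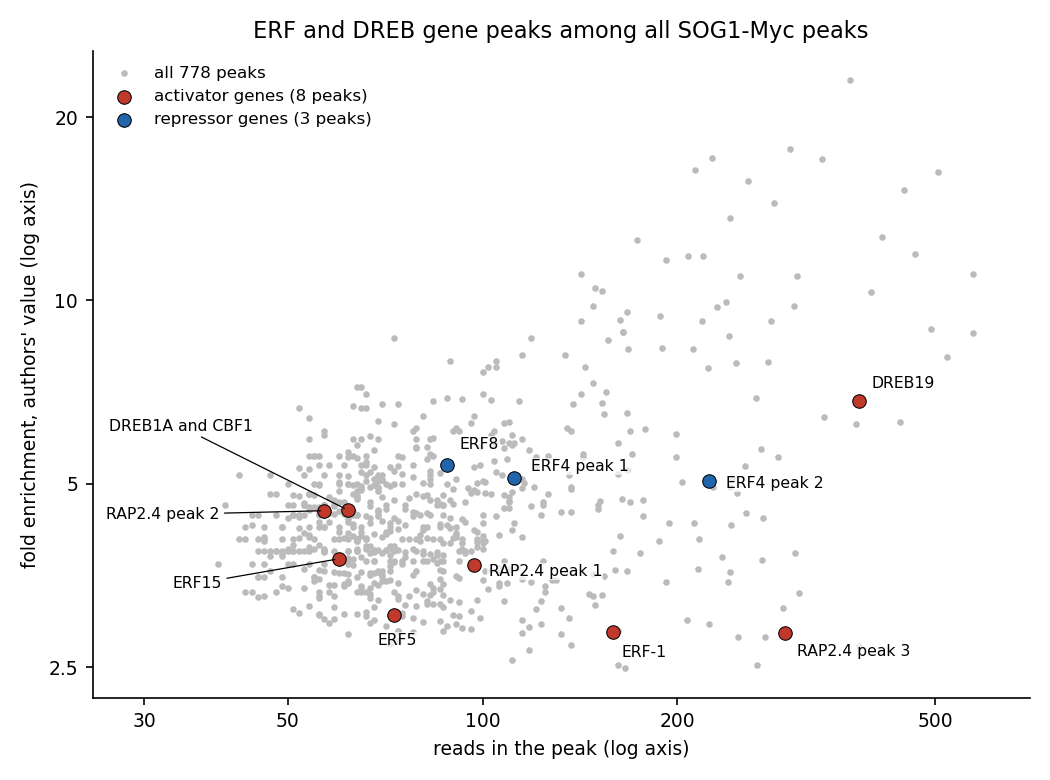
Reads in each peak (x axis) against the authors' fold enrichment (y axis), both on log axes, for all 778 peaks in grey, peaks of activator genes in red and peaks of repressor genes in blue. DREB19 lies among the read-rich peaks at 381 reads, whereas ERF-1 and the third RAP2.4 peak lie at the lower edge, at 2.85-fold and 2.84-fold.

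For 4 of the 9 genes at least 1 peak named no other gene, where 13.2% of the 1369 protein-coding genes with a peak had such a peak. These were ERF-1, ERF15, ERF8 and RAP2.4. The other 5 genes were listed only at shared peaks. Of the 11 peaks, 6 named exactly 1 gene, where 25.6% of all peaks did so, and 5 named 2 or more, where 69.9% of all peaks did. RAP2.4 alone supplied 3 of those 6 peaks and ERF4 supplied 2 of the 5, so the peaks are not independent. Both ERF4 peaks also named AT3G15200, the protein-coding gene just before ERF4. The ERF5 peak also named AT5G47229 and the nudix hydrolase gene NUDT8 (AT5G47240), which stand on either side of it. The DREB19 peak also named AT2G38350 and AT2G38365, and passed over PRA1.B4, which stands between them in the gene order. The peak of DREB1A and CBF1 also named RS40 (AT4G25500), a gene for a splicing factor, and SLK3 (AT4G25515), a gene for a SEUSS-like transcriptional coregulator, but not AT4G25510, which stands between those. For these 5 genes the list does not tell which neighbour a peak belongs to.

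Family members beside ERF-1 and ERF5 in the gene order were not listed. ERF6, the gene just before ERF-1 and a relative in the same subgroup, was not listed at any peak, nor was ERF2, which stands near ERF5 with a pseudogene and AT5G47229 between them. Of the 9 genes, 2 had 2 or more peaks (RAP2.4 and ERF4), where 6.21% of all listed genes did. Counting peaks, 4 of the 11 had another peak within 1000 bp, where 8.35% of all peaks did, and all 4 belong to those 2 genes. The other peaks stood further apart, with the nearest peak 3490 bp away for ERF8, 7933 bp for ERF15 and between 15031 and 65015 bp for DREB19, ERF-1, ERF5 and the peak of DREB1A and CBF1. The peak nearest to that of ERF15, of 4.92-fold with 65 reads, also has no gene listed. Peaks with no gene listed, of which there were 35 in the whole list (4.50%), thus stood next to peaks of ERF4, ERF8 and ERF15.

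Beyond the 9 genes, 65 further genes of the family were looked up, from a list of 74 written from general knowledge with its usual subgroups. The list does not hold every gene of the family, so subgroup counts cover only the genes looked up. Of all 74 genes, 13 were listed at a peak, where 4.99% of protein-coding genes were. That count contains the 9 genes that were chosen for having a peak. Of the 65 others, 4 were listed (6.15%), a share near that of all protein-coding genes. RAP2.4 belongs to DREB subgroup A-6, where 3 of the 5 genes looked up were listed, or 2 of 4 without RAP2.4 itself. The second was WIND2 (AT1G22190), which like RAP2.4 is known for promoting dedifferentiation at wounds and for which the gene table also gives the name RAP2.4. Its peak had 3.97-fold enrichment and 56 reads on chromosome 1, 7832483 to 7833196, shared with AT1G22180. The third was WIND3 (AT1G36060), the only gene listed at a peak of 3.41-fold with 59 reads on chromosome 1, 13454669 to 13455411. Their relatives WIND4 and ERF53 were not listed.

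The ERF branch held the remaining pair. PUCHI (AT5G18560), a regulator of lateral root and flower development that belongs to the subgroup of ERF4 and ERF8, shared a peak of 4.99-fold and 73 reads with AT5G18580. CRF6 (AT3G61630), a cytokinin response factor linked to oxidative stress and senescence, shared one of 5.49-fold and 109 reads with AT3G61620. In the subgroup of ERF-1, ERF5 and ERF15 these were the only 3 listed of the 13 genes looked up, and ERF1, ERF104, ERF105, ERF109 and ORA59 were not. None of the 5 genes looked up from the subgroup of ERF115 and ERF114, factors of root stem cell replenishment and regeneration, was listed. The same was true of all 5 genes of the low-oxygen subgroup that holds RAP2.12, HRE1 and HRE2. DREB2A, the best known relative of DREB19, was not listed, which left DREB19 as 1 of 8 in its subgroup. DREB19, like ERF-1, ERF5 and ERF15, was chosen for having a peak. Since 4.99% of all protein-coding genes were listed, groups as small as these will often have none listed. The absences are therefore not a result about these subgroups.

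Of 32 genes that act with these factors in ethylene and cold signalling, 4 were listed (12.5%, where 4.99% of protein-coding genes were). These 32 are a partial list chosen with earlier results of these data known, so the difference in share was not tested. EBF1 (AT2G25490) and EBF2 (AT5G25350) encode the F-box proteins that mark the ethylene regulators EIN3 and EIL1 for degradation. EBF1 had a long peak of 3.31-fold with 308 reads over 3066 bp on chromosome 2, 10846750 to 10849816, shared with AT2G25482. EBF2 had 2 peaks on chromosome 5 that named it alone, one of 2.94-fold with 224 reads at 8793824 to 8796076 and one of 5.36-fold with 74 reads at 8796777 to 8797500. As at RAP2.4, the EBF2 peak with more reads had the lower fold enrichment.

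TOPLESS (AT1G15750), the corepressor recruited by EAR motifs, is listed under the symbol WSIP1 at a peak of 4.67-fold with 110 reads, shared with AT1G15760. ZAT12 (AT5G59820), a zinc finger regulator of cold and oxidative stress responses listed as RHL41, was at a peak of 4.20-fold with 97 reads, shared with AT5G59810 and AT5G59830. None of the 5 ethylene receptor genes, the 5 ethylene synthesis genes, the 4 kinase genes or the 5 cold target genes was listed, and neither were EIN2, EIN3, CTR1 or ICE1. With 4.99% of all protein-coding genes listed, groups of 4 or 5 genes will often have none listed. A gene that is not listed may also lie below detection, because the depth is unknown.

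**Figure D4:**
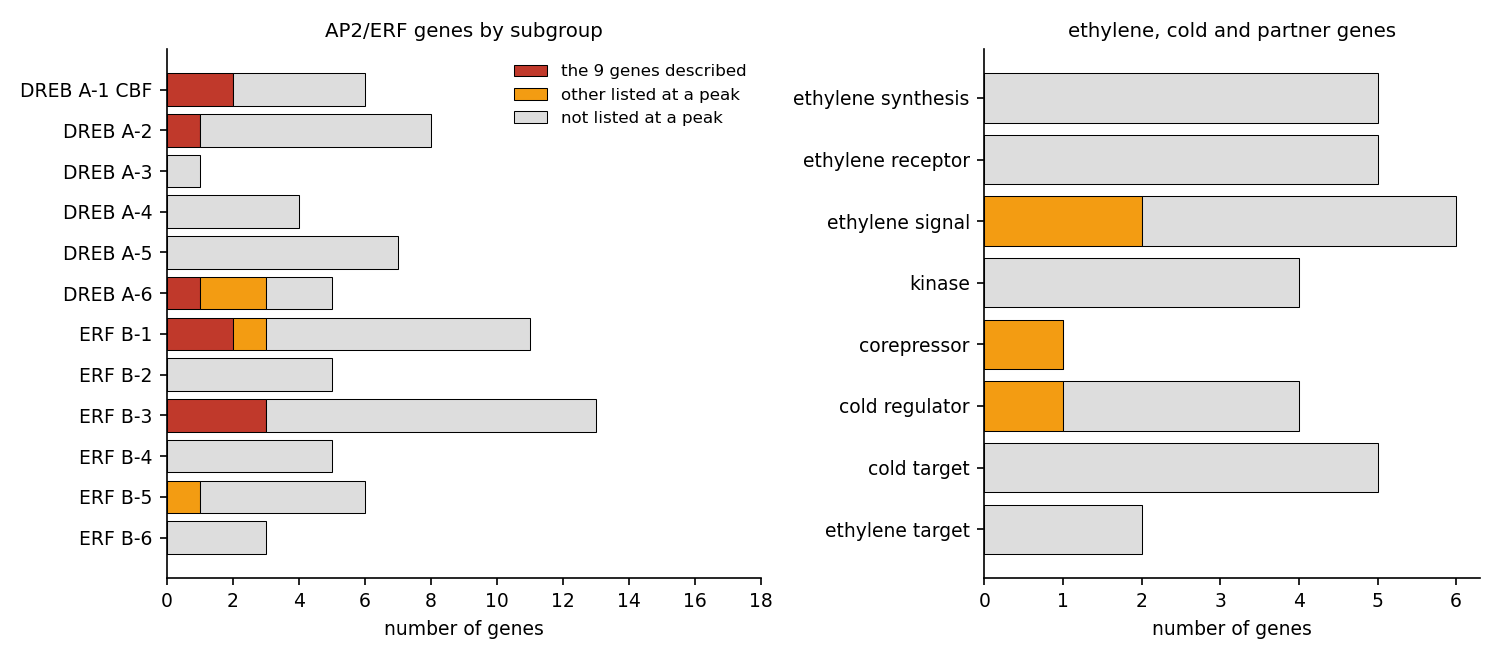
Number of genes (x axis) in each subgroup of the AP2/ERF list (left) and of the ethylene, cold and partner list (right), divided into the 9 genes described, other genes listed at a peak and genes not listed. Among the genes looked up, subgroup A-6 has 3 of 5 listed, with RAP2.4, chosen for having a peak, among them. Of the 12 AP2/ERF subgroups, 6 have none. Over all protein-coding genes 4.99% were listed, so small subgroups will often have none.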

How the data were processed

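ChIP-seq with an anti-Myc antibody was done on 1 library per group. Per the submitters' processing notes, CASAVA 1.8.2 and the TAIR10 build were used. For the aligner, the peak caller, its control and the rule that ties genes to peaks, names and settings were not given in the sources used here. Per the file headers, the authors deposited for each peak a read count (not scaled), a fold enrichment (a ratio), a Decibel Score, a false discovery rate (on the scale of a q-value), a length and a summit, which was below the length in all 778 peaks and was read as an offset from the start. Lines with the same position, 1645 in all, were merged into the 778 peaks. In 261 peaks the stated length is 1 bp shorter than in the other 517, relative to start and end, which leaves edges open by 1 bp.

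A gene belonged to a peak if its locus was the one before the dot of the listed longest transcript, which gave 12 lines for the 9 genes. Reads per kb, ranks, summit share and distances between peaks were computed with Python 3.11.15, pandas 2.3.3 and numpy 2.4.6, and checked on simulated peaks. Names, gene class and gene order came from a table of TAIR10.1 genes, whose positions are not printed, and all 9 members, 74 family genes and 32 pathway genes matched it. Roles and subgroups are from general knowledge. The members and lists were chosen with earlier results of these data known, so no test was run on them. Genes named are all members, every gene at their peaks, every list gene at a peak, and per list some well-known genes without one, while EXL2, AT5G66120 and the genes beside the ERF4 peaks were added after their values were seen. No sequence of promoters or proteins was used here, so the planned motif searches were not run. Settings changed were the peaks that count, the gene assignment, the peak length used and the joining of close peaks.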

Additional observations from a re-analysis of the deposited data

How the results depend on the processing

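Counts and medians were recomputed under 17 other settings, all planned. Of these, 6 kept the value within 1.5 times (counts) or unchanged (medians) and 11 moved. A median was marked as moved even where the change was very small. The tally of 0 reversed carries no weight, since these counts and medians have no direction to reverse. Of the 9 members, 6 stayed among the strongest 389 peaks by fold enrichment, 5 by Decibel Score, 5 among the strongest 396 by reads, and 4 when peaks had to name a single gene. Of the 13 family genes listed, 8 stayed among the strongest 389 by fold enrichment, 7 by Decibel Score and 5 at peaks naming a single gene; of the 4 pathway genes, 2 stayed by fold enrichment and 1 at such peaks. These losses follow from counting fewer peaks. A search for family names in the gene table, which also catches genes outside the family, gave 11 listed genes of 59, 10 of them among the 13. The median fold enrichment of 4.52 was 4.52 with the strongest peak of each gene and 3.72 over the 6 peaks naming a single gene. The median density of 91.7 reads per kb was 91.6 with lengths from start and end. Joining peaks within 1000 bp left 9 regions and within 5000 bp 8, of which 4 named another gene in either case, against 5 of 11 peaks. Not run for want of sequence: the CTT(N)7AAG and EAR motif searches and their alternatives. No paired analysis was possible because each group has 1 library, and no replicate could be left out. The depth of the library, which would set the limit of detection, is unknown.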
